A study of Mus musculus with 9 samples.

Results

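Gas5, Snhg1, Snhg3, Snhg5, Snhg6, Snhg8, Snhg12, Snhg15 and Snhg17 are long noncoding genes that carry small nucleolar RNAs (snoRNAs) in their introns. They were chosen by name, as noncoding RNAs that B cells express well, when earlier results of these data were known. Each symbol matched 1 Ensembl ID, so the members are 9 of the 48795 gene rows in the RNA count files. The comparison asked whether such well-expressed noncoding RNAs are higher in tatcre than in mock cells, beside the weakly expressed ones.

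RNA was sequenced from CD23+ follicular B cells, the main recirculating B cell of the spleen, of C57BL/6 yy1 f/f mice, whose age and sex the labels do not give. The 3 mock and the 3 tatcre libraries all carry the floxed Yy1 gene. Tatcre cells received TAT-CRE, a Cre recombinase fused to a peptide that lets it enter cells, and mock cells a mock treatment, and both were grown with LPS and IL4, which activate B cells. The series text gives 72 hours of culture in 10% serum and the sample text 48 hours in 20% serum, and the sample text also lists the recombinase for mock cells. Titles and series text were followed here. Cells of 3 spleens were divided over the treatments, but the labels do not tie a library to a mouse, and p-values reflect only how far these libraries spread. Only tatcre cells met the recombinase, so exposure to it and loss of Yy1 cannot be told apart.

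A snoRNA guides the chemical modification of another RNA, mostly ribosomal RNA. C/D box snoRNAs direct ribose methylation and H/ACA box snoRNAs direct the conversion of uridine to pseudouridine. In mammals most are cut out of introns after splicing, while the joined exons of a noncoding host leave as a separate RNA, which for several hosts is short-lived and removed by nonsense-mediated decay during translation. Several hosts begin with a terminal oligopyrimidine tract, a run of C and T bases shared with ribosomal protein genes that ties translation to growth signals. Gas5, growth arrest specific transcript 5, was named for its accumulation in cells that stop growing.

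The promoters of 6 members are printed, chosen after their values were seen: Gas5, Snhg1, Snhg5 and Snhg12 fell, and Snhg3 and Snhg8 had higher values in every tatcre library. Those of Snhg15 and Snhg17 are not printed. The sequences come from RefSeq promoters of build GRCm38.p6, which held 8 of the 9 members in 10 windows, since Gas5 and Snhg17 have a second annotated start. Snhg6 had no entry. Each run goes 5′ to 3′ on the strand of the gene, with 50 bases before the annotated start and 50 from it. Capitals mark the first transcribed base or, where that base is C, the unbroken run of C and T bases that begins there. The second annotated start of Gas5 is shown. Its first start, not shown, has a G as first base and so no such run.
Gas5, chr1:161035116-161035215 (plus strand): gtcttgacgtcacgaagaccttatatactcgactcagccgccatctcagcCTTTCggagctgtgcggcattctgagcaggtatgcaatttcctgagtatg
Snhg1, chr19:8723437-8723536 (plus strand): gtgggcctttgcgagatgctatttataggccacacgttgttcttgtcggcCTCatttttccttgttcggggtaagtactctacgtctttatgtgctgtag
Snhg5, chr9:88522848-88522947 (minus strand): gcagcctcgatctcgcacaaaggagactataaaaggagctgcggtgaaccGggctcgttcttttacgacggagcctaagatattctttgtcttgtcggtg
Snhg12, chr4:132308628-132308727 (plus strand): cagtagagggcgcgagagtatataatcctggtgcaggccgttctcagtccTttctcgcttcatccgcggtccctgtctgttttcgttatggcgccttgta
Snhg3, chr4:132353637-132353736 (minus strand): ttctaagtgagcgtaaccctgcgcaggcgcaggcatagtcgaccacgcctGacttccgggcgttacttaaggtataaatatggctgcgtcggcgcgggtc
Snhg8, chr3:123508287-123508386 (minus strand): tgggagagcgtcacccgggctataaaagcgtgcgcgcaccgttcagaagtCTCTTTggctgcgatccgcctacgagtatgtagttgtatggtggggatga

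A C at the annotated start followed by C or T bases, at least 5 in all, was present in 2 members: the second start of Gas5 (CTTTC) and Snhg8 (CTCTTT). Of all 32851 promoter windows, 2.51% had such a run, and of 68 windows of ribosomal protein genes 20.6%. When the run could begin within 5 bases of the annotated start, 4 of the 8 members with a window had one: Gas5, Snhg3, Snhg8 and Snhg12. Of all windows 18.3% had one, and of the ribosomal protein windows 44.1%. Members were counted by gene, in any of its windows, and the shares by window. Of these 4 members, Gas5 and Snhg12 fell and Snhg3 and Snhg8 did not pass the test.

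Cores of the YY1 binding motif were searched on both strands over the whole window, 250 bases before and 50 from the start. The core ATGGCG was found in Gas5, as its reverse complement from base -12 to -7 of the second start, and in Snhg12, as written, from base 38 to 43, where base 1 is the annotated start and negative numbers lie before it. Of all windows, 8.93% held it, and of the ribosomal protein windows 27.9%. The other core, CCATNTT, which can overlap the first, was found in Snhg3 only among the 8 members, as the reverse complement from base 27 to 33. It was present in 16.1% of all windows and in 35.3% of the ribosomal protein windows. The window of the first Gas5 start held neither core. A match of letters is not a measured binding site. The peak lists of the series were not placed on genes here.

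All 9 members passed the filter on low counts, and the smallest count of any member in any library was 381. Levels are given as CPM, the counts of a gene relative to the library's total, with totals scaled by TMM, a method that sets libraries to a common level over most genes. Transcript lengths were not used, so a CPM of one gene is not compared with that of another as an amount of RNA molecules. Of the members, 4 fell in tatcre cells, 0 rose and 5 did not pass the test, which was edgeR's quasi-likelihood test with Benjamini-Hochberg adjustment over 15546 genes at 0.05. Of all tested genes 27.1% were called, 16.3% lower and 10.8% higher. The median log2 fold change was -0.08 over the members and 0.02 over all tested genes. In 6 members the mock and tatcre values did not overlap, 4 of them lower and 2 higher in tatcre cells, where 44.0% of all tested genes had such values, 23.3% lower and 20.6% higher.

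Gas5 (ENSMUSG00000053332, chr1:161034601-161038539, plus strand) hosts C/D box snoRNAs, 8 of which RefSeq places within it. Its level was 552, 616 and 656 CPM in mock libraries 1 to 3 and 435, 462 and 478 CPM in tatcre libraries 1 to 3. Every tatcre library lay below every mock library. Mean levels were 608 ± 52.7 CPM for mock and 458 ± 21.7 CPM for tatcre (SD, n = 3 each), 1.33-fold lower in the fit. The log2 fold change was -0.41 (SE 0.08, 95% interval -0.59 to -0.23, edgeR quasi-likelihood adjusted p = 0.00393).

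Snhg5 (ENSMUSG00000097195, chr9:88521052-88522897, minus strand) is a shorter host with 2 snoRNAs within it. It stood at 148, 163 and 173 CPM in mock and at 124, 107 and 129 CPM in tatcre libraries, with no overlap. Means were 161 ± 12.4 and 120 ± 11.3 CPM (SD, n = 3 each), and the fit gave a 1.35-fold fall (log2 -0.43, SE 0.09, 95% interval -0.64 to -0.23, edgeR adjusted p = 0.00616). Among the members only Gas5 and Snhg5 passed the threshold in all 12 alternatives, with adjusted p-values up to 0.0288 and 0.0224.

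Snhg1 (ENSMUSG00000108414, chr19:8723487-8726326, plus strand) holds 8 snoRNAs, as many as Gas5. Its values were 136, 166 and 174 CPM in mock and 119, 125 and 127 CPM in tatcre libraries. The lowest mock library, mock 1, was the nearest to the tatcre values, and the groups did not overlap. From 158 ± 20 to 124 ± 4.57 CPM (SD, n = 3 each), Snhg1 fell 1.28-fold (log2 -0.36, SE 0.10, 95% interval -0.57 to -0.14, edgeR adjusted p = 0.0203). The call was lost without mock 2 (adjusted p = 0.0691), without mock 3 (0.0587), without tatcre 1 (0.0858) and when library size alone set the scale (0.0568), over a range of 0.000412 to 0.0858 in the 12 alternatives.

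Snhg12 (ENSMUSG00000086290, chr4:132308678-132311024, plus strand) holds 4 snoRNAs. It had 26.9, 30.4 and 26.6 CPM in mock and 19.6, 21.0 and 24.6 CPM in tatcre libraries, again without overlap, with tatcre 3 nearest to mock. The change from 27.9 ± 2.14 to 21.7 ± 2.57 CPM (SD, n = 3 each) was a 1.29-fold fall (log2 -0.36, SE 0.11, 95% interval -0.61 to -0.12, edgeR adjusted p = 0.0336). This call held in 5 of 12 alternatives. It was lost without mock 1 (0.0508), mock 2 (0.117), tatcre 1 (0.117) or tatcre 2 (0.0687), with upper-quartile scaling (0.058), with library size alone (0.096) and with a replicate block (0.0627).

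**Figure D1:**
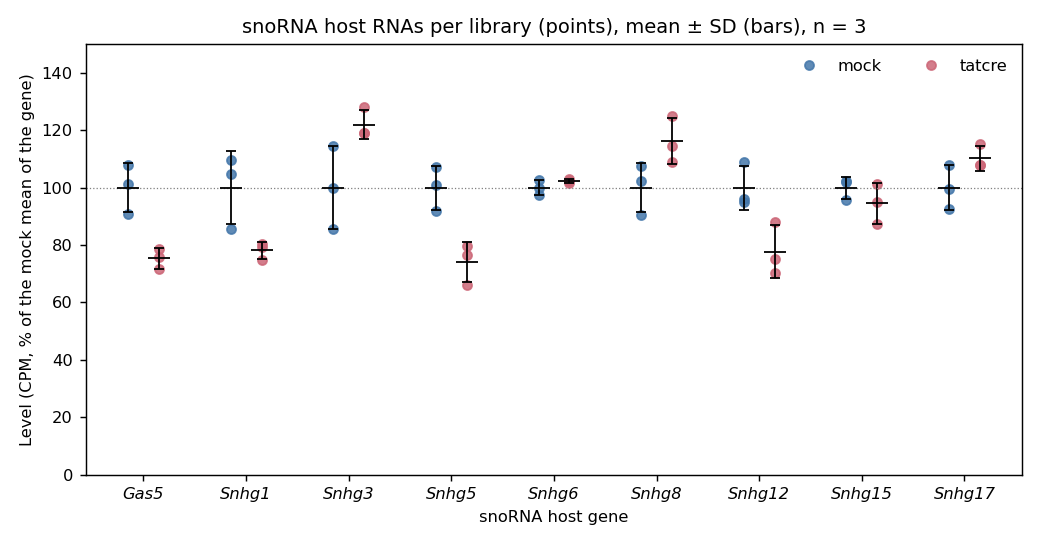
Level of each member in each RNA library, as CPM with TMM-scaled library sizes in percent of the gene's mock mean, on a linear axis. Each gene has 3 mock and 3 tatcre points, with bars for the mean ± SD. The tatcre points of Gas5, Snhg1, Snhg5 and Snhg12 lie below all their mock points, and those of Snhg3 and Snhg8 above.

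Snhg3 (ENSMUSG00000085241, chr4:132351933-132353686, minus strand) lies on chromosome 4 near Snhg12 and hosts the H/ACA box snoRNAs Snora73a and Snora73b. Its values were 53.4, 71.3 and 62.2 CPM in mock and 74.1, 74.0 and 79.7 CPM in tatcre libraries, so that every tatcre library was above every mock library. Mean levels were 62.3 ± 8.95 CPM for mock and 75.9 ± 3.22 CPM for tatcre (SD, n = 3 each). This difference did not pass the test (log2 0.29, SE 0.11, 95% interval 0.05 to 0.52, edgeR adjusted p = 0.0674). It passed in 4 of 12 alternatives, over adjusted p-values of 0.0132 to 0.2: with DESeq2 (0.0367), upper-quartile scaling (0.0212), library size alone (0.0132) and without mock 2 (0.0249).

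Snhg8 (ENSMUSG00000104960, chr3:123507552-123508336, minus strand), the host of Snora24, had 37.1, 44.1 and 42.0 CPM in mock and 47.1, 44.8 and 51.3 CPM in tatcre libraries. The groups did not overlap, though mock 2 and tatcre 2 lay close to each other. Means were 41.1 ± 3.56 and 47.7 ± 3.30 CPM (SD, n = 3 each), with a log2 fold change of 0.22 (SE 0.10, 95% interval 0.01 to 0.43, edgeR adjusted p = 0.118). It passed in 2 alternatives, upper-quartile scaling (0.0307) and library size alone (0.0188), over adjusted p-values of 0.0188 to 0.323.

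Snhg17 (ENSMUSG00000085385, chr2:158353700-158361522, minus strand) had overlapping values, 45.6, 53.3 and 49.1 CPM in mock and 53.1, 53.1 and 56.8 CPM in tatcre libraries. The log2 fold change was 0.14 (SE 0.09, 95% interval -0.05 to 0.33, edgeR adjusted p = 0.257). Only library size alone brought it past the threshold (0.0415), with adjusted p-values up to 0.547 in the other alternatives.

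Snhg6 and Snhg15 stood near their mock level. Snhg6 (ENSMUSG00000098234, chr1:9942025-9944118), the host of Snord87, had 63.0, 61.5 and 64.6 CPM in mock and 65.0, 64.5 and 64.0 CPM in tatcre libraries. These 6 values lay close together, with a coefficient of variation of 2.48% in mock and 0.804% in tatcre cells. The log2 fold change was 0.03 with a 95% interval of -0.13 to 0.20, so the data allow changes of that range (edgeR adjusted p = 0.767). Snhg15 (ENSMUSG00000085156, chr11:6525591-6528760, minus strand) had 17.1, 18.3 and 18.3 CPM in mock and 15.6, 18.2 and 17.0 CPM in tatcre libraries. Its log2 fold change of -0.08 had a 95% interval of -0.31 to 0.15 (edgeR adjusted p = 0.602), and its sign turned, to 0.026, with library size alone.

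The members thus held values on both sides of 0, with intervals below 0 for Gas5, Snhg1, Snhg5 and Snhg12 and intervals above 0, before adjustment, for Snhg3 and Snhg8. Whether any member's change differed from that of another was not tested. Gas5 gave 50.3 to 51.9% of the 9 members' counts in mock and 45.7 to 47.6% in tatcre libraries, so a sum over members mostly follows Gas5. That sum was 1190 ± 98.1 CPM for mock and 983 ± 39.4 CPM for tatcre (SD, n = 3 each). Among mock libraries, mock 1 had the lowest values of Gas5, Snhg1, Snhg5, Snhg3, Snhg8, Snhg15 and Snhg17, whichever way the tatcre values lay.

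**Figure D2:**
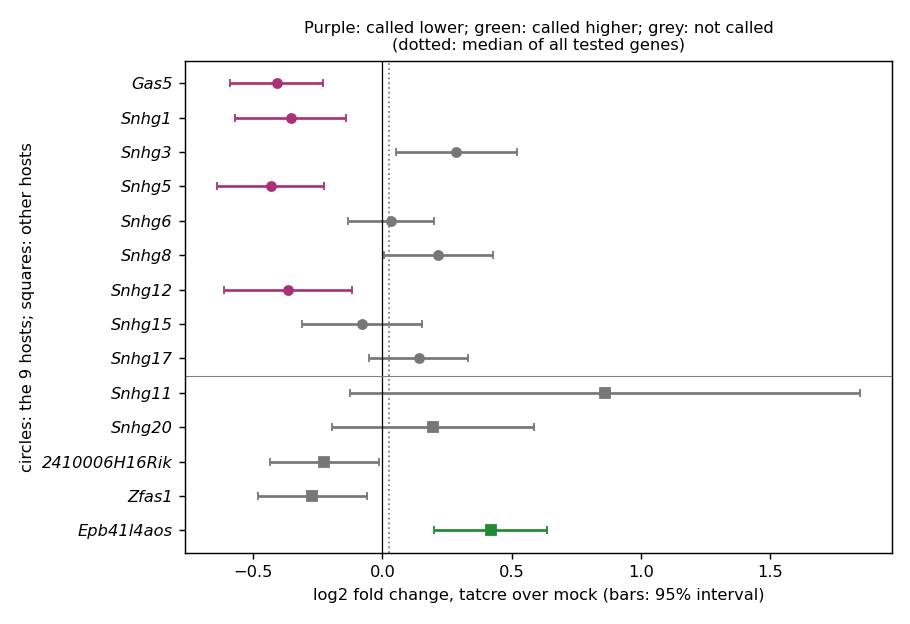
Log2 fold change of tatcre over mock for the members and the other noncoding snoRNA hosts that were tested, with 95% intervals from the edgeR fit; the line at 0 stands for equal levels. Of the members, 4 intervals lie below 0 and those of Snhg3 and Snhg8 lie just above it.

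To check the deletion, Yy1 had 2542 to 3018 counts in mock and 24 to 50 in tatcre libraries, a 71.0-fold fall in the fit (edgeR adjusted p = 1.7e-08). Library totals ran from 22729187 to 28230727 counts. Mock 3 stood apart on the first principal axis (-79.0, with the other mock libraries at -36.4 and -9.80 and tatcre libraries at 29.0 to 56.0) and detected 20420 genes, the other libraries 21875 to 23197. Summed B cell markers were 4430 to 4790 CPM in mock and 3690 to 3790 CPM in tatcre libraries, with 4 of 8 tested markers lower, among them Fcer2a, which encodes CD23. T cell markers summed to 15.5 to 22.4 and 9.94 to 13.9 CPM, dendritic cell markers to 120 to 134 and 106 to 113 CPM, and plasma cell markers to 812 to 851 and 633 to 695 CPM. Those of macrophages, with Cd14, C1qa and C1qb among those at 0, gave 0.298 to 2.27 CPM in mock and 2.97 to 4.72 CPM in tatcre libraries. Only 3 of 8 T cell, 2 of 6 dendritic cell and 1 of 8 macrophage markers had enough counts to be tested. The T cell and dendritic cell sums came mostly from 1 gene each, so none of these 3 sums measures the number of such cells. NK cell, neutrophil and erythroid markers summed to at most 1.06 CPM in any library, with Klrd1, S100a8, S100a9, Ly6g, Hbb-bs and Hba-a2 at 0. The part of these shifts in the members' values was not tested, and in bulk RNA fewer cells of a type and less RNA per cell cannot be told apart. Of 17 proliferation genes 4 fell (23.5%), 0 rose and 13 did not pass, with a median log2 fold change of -0.15. Of all tested genes 16.3% fell, and of protein-coding genes at a mean log2 CPM of 4 and over 23.3%. The fall of smallest p was Mcm5, a subunit of the replicative helicase, from 357 to 178 CPM.

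To set the members against noncoding RNAs at large, the tested genes were grouped by RefSeq gene type and by mean log2 CPM. Noncoding genes made up 790 of the 15546 tested genes. Under a mean log2 CPM of 2 there were 603 of them, of which 64 rose (10.6%) and 11 fell (1.82%), with a median log2 fold change of 0.62. Between 2 and 4 there were 125, of which 41 rose (32.8%) and 10 fell (8.0%). At 4 and over there were 62, with 15 rises (24.2%), 16 falls (25.8%; 8 falls without tatcre 1) and a median of 0.03. The members all belong to this last group, at 4.13 to 9.06, with 0 rises and 4 falls among 9, and the other 53 had 15 rises, 12 falls and a median of 0.05. The share of rises among the weak noncoding genes was close to the 10.8% of all tested genes and below that of the well-expressed ones. Their share of falls was below the 16.3% of all tested genes. Fold changes of weak genes are less precise, so a change of the same size is called less often among them. The shares called therefore do not show whether weak or well-expressed noncoding genes rose more. For the well-expressed ones the split depended on the scaling: it was 18 rises and 12 falls with upper-quartile scaling and 22 rises and 10 falls with library size alone. The count of weak rises moved from 64 to 99 without mock 1 and to 23, 47, 27, 33 and 53 without mock 2, mock 3, tatcre 1, tatcre 2 and tatcre 3.

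Protein-coding genes showed part of the same pattern. Under a mean log2 CPM of 2 their median log2 fold change was 0.37, also above 0, but rises (178 of 2700) and falls (204) were near-equal in number. At 4 and over, 904 of 6836 rose and 1596 fell, a median of -0.05. A weak gene can pass the filter on counts through the group where it is high, so both the counts and the medians of weak genes are descriptions only. Whether noncoding and protein-coding genes differ at a given level was not tested.

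**Figure D3:**
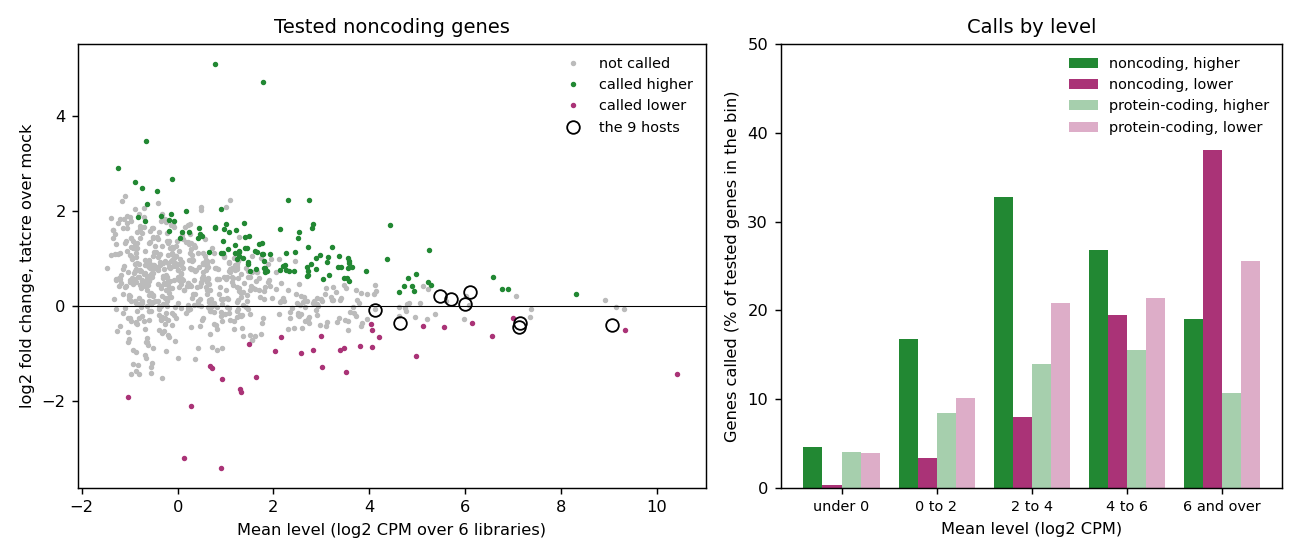
Left, log2 fold change of tatcre over mock against mean log2 CPM for every tested noncoding gene, with the 9 members marked. Right, the share of tested noncoding and protein-coding genes called higher and lower in each level bin. The median of the noncoding genes, not drawn, is 0.69 in the weakest bin and -0.06 in the strongest. In the left panel the members lie to the right with values between -0.43 and 0.29.

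The 5 noncoding genes other than the members with the highest mean log2 CPM gave 2 falls. Xist, the RNA that coats the inactive X chromosome, stood at 1325, 2204 and 2495 CPM in mock and 454, 894 and 881 CPM in tatcre libraries, with mock 1 lowest in its group as it was for Gas5 (2.70-fold lower, edgeR adjusted p = 0.00232). Malat1, a nuclear RNA, went from 765 ± 147 to 536 ± 78.1 CPM (SD, n = 3 each; 1.43-fold lower, edgeR adjusted p = 0.0182). Mir155hg, the host of miR-155, had 656 and 626 CPM (edgeR adjusted p = 0.779). AI662270 and Gm8995 had adjusted p-values of 0.817 and 0.332 in the same test.

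Other noncoding snoRNA hosts were read in the same way. Of 16 symbols listed, 9 matched a row and 5 were tested, with 1 rise, 0 falls and a median log2 fold change of 0.20. A host that the count files hold under another symbol was not counted here. The rise was Epb41l4aos, a host antisense to Epb41l4a, at 23.2, 23.8 and 20.7 CPM in mock and 30.7, 28.1 and 31.7 CPM in tatcre libraries. It rose 1.34-fold without overlap (edgeR adjusted p = 0.00975). Zfas1 and 2410006H16Rik, both lower in every tatcre library, did not pass (log2 -0.27 and -0.22, edgeR adjusted p = 0.0565 and 0.108). Zfas1 went from 69.3 ± 5.67 to 57.4 ± 5.07 CPM and 2410006H16Rik from 33.4 to 28.5 CPM. Snhg20 had 8.54 and 9.79 CPM and Snhg11 1.57 and 2.87 CPM (edgeR adjusted p = 0.436 and 0.179). Dancr, Snhg9, Snhg14 and Snhg18 had too few counts to be tested. DESeq2 and a fit with no filter each gave 1 fall in this list.

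Protein-coding genes also house snoRNAs. Of 35 listed, all were tested, and 4 rose, 11 fell and 20 did not pass, with a median log2 fold change of -0.13. The falls are 31.4% and the rises 11.4% of the list. Of protein-coding genes at a mean log2 CPM of 4 and over, 23.3% fell and 13.2% rose. Atp5b, a subunit of ATP synthase, went from 825 ± 32.8 to 526 ± 28.8 CPM (1.57-fold lower, edgeR adjusted p = 0.000104). Ncl, which encodes the nucleolar protein nucleolin, went from 13140 ± 2002 to 9412 ± 804 CPM, a 1.40-fold fall (edgeR adjusted p = 0.00616). The rises of smallest p were Rpl5 (51.4 to 84.9 CPM), Rpl13a (125 to 159 CPM) and Tnpo2 (57.4 to 75.1 CPM). Rpl5 and Rpl13a encode ribosomal proteins and have many near-identical pseudogenes, so how their reads were counted is uncertain. Falls in this list numbered 4 without mock 2 and 7 without tatcre 1, and rises numbered 2 without mock 1, mock 3, tatcre 1 or tatcre 3.

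RNAs that encode the proteins binding and assembling snoRNAs were counted next. Of 20 genes of snoRNP proteins and assembly factors, 7 (35.0%) fell, 0 rose and 13 did not pass, with a median log2 fold change of -0.20. Of all tested genes 16.3% fell, and of protein-coding genes at a mean log2 CPM of 4 and over 23.3%. All of this list but Shq1 and Znhit3 lie at that level. Nop56 and Nop58, core proteins of C/D box particles, went from 243 to 173 CPM and from 670 to 502 CPM. Dkc1, the pseudouridine synthase of H/ACA box particles, went from 401 to 275 CPM. Nop56, Nop58 and Dkc1 are also among the falls of the protein-coding hosts above, so these lists are not separate counts. Ruvbl2 and Nolc1, which act in particle assembly and traffic, fell 1.47-fold and 1.51-fold (edgeR adjusted p = 0.00264 and 0.00633). Nufip1 and Phax were the other falls. The list had 4 falls without mock 2 and 3 without tatcre 1. Fbl, the methyltransferase of C/D box particles, did not pass (30.0 and 26.6 CPM, edgeR adjusted p = 0.373).

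Spliced noncoding hosts are known substrates of nonsense-mediated decay, so its factors were counted. Of 22, 5 fell (22.7%), 1 rose (4.55%) and 16 did not pass, with a median of -0.02. That share of falls was near the 23.3% of protein-coding genes at a mean log2 CPM of 4 and over. Of all tested genes 16.3% fell. Pnrc2, Etf1 (a translation release factor) and Casc3 (a part of the exon junction complex) were the falls of smallest p, at 1.49-fold, 1.37-fold and 1.34-fold lower. Upf3a rose 1.20-fold (edgeR adjusted p = 0.0493). Falls numbered 3 without mock 2 or without tatcre 1, and the rise was lost without mock 1, mock 2, tatcre 1 or tatcre 3. Of 79 cytoplasmic ribosomal protein genes, 6 rose (7.59%) and 7 fell (8.86%), with a median of -0.01. Rpl21, itself a snoRNA host, went from 312 to 238 CPM and Rpl15 from 41.1 to 73.9 CPM. Near-identical copies make counts of this family uncertain, and its split turned to 11 rises and 4 falls with upper-quartile scaling. Without mock 2 the falls numbered 2.

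Genes that share sequence or a start region with a member were read beside it. Zbtb37, a zinc finger gene on the opposite strand, overlaps Gas5, with starts 248 bases apart. Zbtb37 rose 1.53-fold, from 25.9 ± 1.81 to 39.6 ± 3.62 CPM (SD, n = 3 each, log2 0.61, edgeR adjusted p = 0.00133), while Gas5 fell. Whether counting used strand is unknown, so reads from the overlap cannot be told apart.

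Slc3a2, which encodes the heavy chain of an amino acid transporter, starts 118 bases from Snhg1 on the opposite strand without overlap. Slc3a2 fell 1.18-fold, from 159 ± 5.54 to 135 ± 7.44 CPM (SD, n = 3 each, edgeR adjusted p = 0.037), and Snhg1 beside it fell 1.28-fold. The Slc3a2 call was lost without mock 2 (0.0967), mock 3 (0.0661), tatcre 1 (0.119) or tatcre 2 (0.084), with upper-quartile scaling (0.0762), with library size alone (0.15) and with a replicate block (0.0858). Mcmdc2 overlaps Snhg6 and was near the detection limit, at 0.711 and 1.06 CPM.

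**Figure D4:**
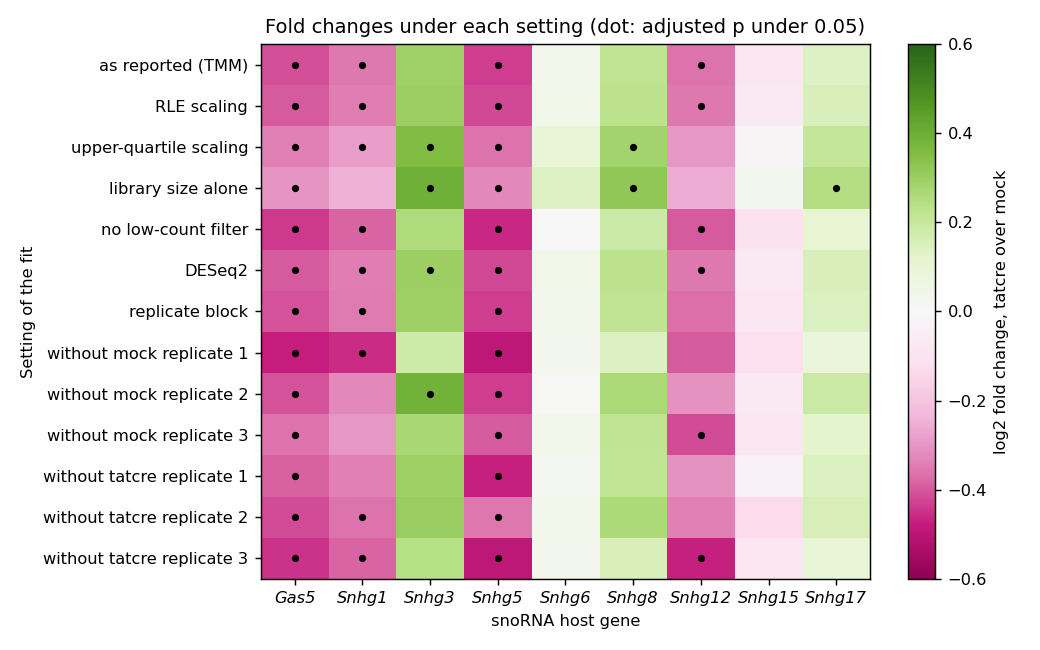
Log2 fold change of each member under the main settings and each of 12 alternatives, with calls at an adjusted p of 0.05 marked. Gas5 and Snhg5 are called in all, Snhg1 in 8 and Snhg12 in 5, and Snhg6 and Snhg15 in none.

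Most of the snoRNAs that the members house had no row in the count files or no counts in it. RefSeq places 29 snoRNAs of 56 to 205 bases within the 9 members, from 1 to 8 in each, and 10 of them had a row in the count files. Of these, 7 were listed at 0 in all 6 libraries: Snord47 in Gas5, Snord22 in Snhg1, Snora24 in Snhg8, and Snora16a, Snora44, Snora61 and Snord99 in Snhg12. In counting error alone, a 0 is compatible with 3 counts, which is 0.111 to 0.128 CPM by library. A 0 describes these libraries and is no measure of the mature snoRNA in the cells.

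Snora73b and Snord87 could be tested. Snora73b in Snhg3 had 619, 868 and 641 counts in mock and 597, 671 and 861 in tatcre libraries, with overlap (27.6 ± 4.40 and 29.0 ± 5.09 CPM, log2 0.07, 95% interval -0.25 to 0.39, edgeR adjusted p = 0.747). Its close relative in the same host, Snora73a, had 2 to 9 counts per library, and how reads were divided between them is not known. Snord87 in Snhg6 had 77, 71 and 70 counts in mock and 44, 53 and 53 in tatcre libraries. Its values did not overlap and did not pass the test (2.84 ± 0.185 and 2.05 ± 0.215 CPM, log2 -0.47, 95% interval -1.03 to 0.09, edgeR adjusted p = 0.197), beside a log2 fold change of 0.03 for its host. Of 51 tested snoRNA rows in the files, 1 rose and 0 fell, and 2 had an unadjusted p under 0.05. Of all tested genes, 10.8% rose and 16.3% fell. Most of these snoRNA rows held few counts and had wide intervals. Changes of the size seen in the hosts could therefore be missed, and the rows not called are not shown to be unchanged.

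Among the 6836 protein-coding genes of the group at 4 and over, those whose values over the 6 libraries were most like the mean standardised profile of the members included Bclaf1 (Pearson r 0.980), Gins3 (0.977), Tars (0.970) and Nop14 (0.970). That mean profile had no clear split between groups: it was -0.53, 0.44 and 0.45 in mock and -0.39, -0.18 and 0.21 in tatcre libraries, and none of these genes was called. It averages members of opposite pattern, so likeness to it is not likeness to a given member. Pearson r with Gas5 was 0.974, 0.927, 0.867 and 0.682 for Snhg1, Snhg5, Snhg12 and Snhg15. For Snhg3, Snhg6, Snhg8 and Snhg17 it was -0.545, -0.512, -0.532 and -0.480. Each r spans the 6 libraries of both groups, so it also carries the differences between mock and tatcre given above. Shared regulation was not tested.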

How the data were processed

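Gene counts of 3 mock and 3 tatcre RNA libraries were used as deposited, raw and not normalized. The submitters' processing notes name build mm10 and the tools HTSeq, TopHat2, Trimmomatic, SAMtools and MACS2, and give no version. RNA libraries came from a stranded kit, per the labels' protocols. For the counting, the annotation, the strand setting and the handling of multi-mapping reads were not given in the sources used. Of 48795 gene IDs, 48349 matched a symbol and 35809 a RefSeq gene of GRCm38.p6 through symbol or synonym, which gave positions and gene types.

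Genes were kept with filterByExpr (minimum count 10, minimum total 15), scaled by TMM and tested for tatcre against mock with edgeR 4.0.16 (R 4.3.3) by the quasi-likelihood test, with Benjamini-Hochberg adjustment over 15546 genes and a threshold of 0.05. Fold changes come from the fit. The SE is the size of the log2 fold change divided by the square root of F, and 95% intervals follow from it. At 22729187 to 28230727 counts per library, a count of 0 allows 3 counts. Closest replicates differed beyond sampling noise (chi-square per degree of freedom at least 7.50). The fit was tested on simulated data.

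The members and the gene lists were chosen with earlier results of these data known, so no list was tested and counts and medians are descriptions. Named genes were all members, Yy1, tested neighbours (overlapping, or starting within 2000 bases on the other strand), up to 3 called genes of smallest adjusted p per list and direction, the 5 coding genes most like the members and the 5 other noncoding genes of highest level. A few genes this takes in, or that the marker lists hold, are not reported here. Genes named beyond this, such as Fbl, Nop58, Dkc1, Nufip1, Phax, Fcer2a, snoRNAs and hosts not called, were chosen from the lists after their values were seen. Alternatives were RLE and upper-quartile scaling, library size alone, no filter, DESeq2 1.42.0, a replicate block and each library left out. Peak lists were not used here, since the build of their coordinates was not settled.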

Additional observations from a re-analysis of the deposited data

How the results depend on the processing

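Gas5 and Snhg5 kept their fall in all 12 alternatives (log2 -0.48 to -0.30 and -0.49 to -0.33). Of single genes followed, 130 values kept direction and side of the threshold, 18 lost the call, 7 gained one and 1 reversed, Snhg15, at 0.026 with library size alone. For all but the left-out libraries the cause of a shift was not tested.

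Library size alone moved the median log2 fold change of all tested genes from 0.02 to 0.13, and upper-quartile scaling to 0.09, and members moved with it. Relative to that median, Gas5 stayed between -0.49 and -0.36 and Snhg3 between 0.16 and 0.37. All-gene rises and falls, 1679 and 2536, became 2614 and 1894 with library size alone and 2229 and 2097 with upper-quartile scaling. With library size alone, members had 2 falls and 3 rises (Snhg3, Snhg8, Snhg17), noncoding genes at 4 and over 10 falls and 22 rises, decay factors 3 falls and 3 rises, ribosomal protein genes 3 falls and 11 rises, other long noncoding RNAs 8 rises and proliferation genes 4 rises. With upper-quartile scaling, members had 2 rises (Snhg3, Snhg8), noncoding genes at 4 and over 12 falls and 18 rises, decay factors 3 rises, ribosomal protein genes 4 falls and 11 rises and proliferation genes 2 rises. DESeq2 gave 1 rise among members (Snhg3), 1 fall among other noncoding hosts, 2 rises among decay factors and 1 among proliferation genes. No filter gave 1 fall among other noncoding hosts and 14 among ribosomal protein genes.

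Of the samples of equal number, only mock 1 and tatcre 1 deviated together (correlation of deviations 0.276). Those numbered 2 and 3 did not (-0.272 and -0.256), with mock 2 closest to tatcre 3 and mock 3 to tatcre 2. Numbers were therefore not used as pairs. With the replicate block, 2108 genes fell and 1313 rose, 3 members fell (Snhg12 not called, adjusted p = 0.0627, nor Slc3a2, 0.0858), decay factors had 3 falls and 0 rises and ribosomal protein genes 4 falls.

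Leaving out 1 library in turn gave 998 to 1681 rises and 1960 to 2391 falls over all genes, and 2 to 4 falls and 0 to 1 rises among members. Noncoding genes under 2 had 23 to 99 rises and 7 to 11 falls, and those at 4 and over 11 to 14 rises and 8 to 15 falls. Falls ranged from 0 to 1 among other noncoding hosts, 4 to 12 among protein-coding hosts (rises 2 to 3), 3 to 8 among snoRNP genes, 3 to 6 among decay factors (rises 0 to 1), 2 to 7 among ribosomal protein genes (rises 5 to 9), 2 to 6 among other long noncoding RNAs (rises 3 to 6) and 3 to 5 among proliferation genes (rises 0 to 1).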

Other observations

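Established long noncoding RNAs that host no snoRNA were also counted. Of 27 listed, 24 had a row and 18 were tested, with 5 rises, 5 falls and 8 not called, and a median log2 fold change of 0.28. Rises and falls were each 27.8% of those tested, where 10.8% of all tested genes rose and 16.3% fell. Jpx, a noncoding activator of Xist, went from 4.44 to 1.57 CPM (2.82-fold lower, edgeR quasi-likelihood adjusted p = 0.000889). Mir17hg, the host of the miR-17 cluster, went from 115 to 74.1 CPM, a 1.56-fold fall (edgeR adjusted p = 0.0122). Peg13, an imprinted RNA, went from 3.66 to 1.09 CPM (edgeR adjusted p = 0.00461). Among the rises, Eldr had 3.82, 2.48 and 3.49 CPM in mock and 10.8, 10.9 and 10.6 CPM in tatcre libraries, without overlap (3.31-fold higher, edgeR adjusted p = 5.7e-05). Firre, an X-linked nuclear RNA, rose 1.93-fold to 15.7 CPM, and Dubr rose 1.42-fold to 43.9 CPM (edgeR adjusted p = 0.00147 and 0.00298). Without tatcre 1 the list had 3 rises and 2 falls.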
